A study of Rattus norvegicus with 48 samples.

Results

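The miRNAs miR-451 and miR-144 of red blood cells were followed in rat liver after partial hepatectomy (PHx). They are 2 of the 143 miRNAs in the deposited table and were chosen by name, as the rows rno-miR-451 and rno-miR-144, because both lie in a single genomic cluster. Earlier results of these data were known when they were chosen. Total RNA of frozen whole liver from 48 male Sprague-Dawley rats, in 16 groups of 3, was measured with the NanoString nCounter assay, an assay that tags every miRNA with a colour-coded probe and counts the tags without amplification. All rats were 8 to 14 weeks old, were pair-fed a Lieber-DeCarli liquid diet for 6 to 8 weeks, and drew 36% of their calories either from ethanol (EtOH) or, in controls, from maltose-dextran (CHO). PHx removed 70% of the liver. Untreated rats of each diet were collected at 0, 6, 24, and 72 h. Rats of each diet given saline, or AM21 at 7.5 mg/kg, a locked nucleic acid oligonucleotide antisense to miR-21, were collected at 0 and 24 h. Injections were intraperitoneal, 72 h before surgery and directly after it. The labels number the animals at 0 and 24 h in sets 1 to 3, with 1 animal of all 12 groups in each set, and those at 6 and 72 h in set 4. What a set is was not stated, so a change at 6 or 72 h against 0 h cannot be told apart from a difference between sets. Comparisons of 72 h against 6 h, 24 h against 0 h and the diets at one time drew both sides from the same sets. The main model held no term for set, and a replicate block was run as an alternative.

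miR-144 and miR-451 are cut from a single primary transcript that erythroid precursors make under the control of the transcription factor GATA1, and both persist in circulating red blood cells. miR-451 is unusual in that Dicer does not process it. Its short hairpin is sliced by Argonaute 2 and then trimmed. A piece of whole liver holds blood in its sinusoids and vessels, and in such bulk RNA fewer cells of a type and less RNA per cell cannot be told apart.

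The mature sequences are given 5′ to 3′ because the members differ in the bases that select targets even though they share a transcript. They are RefSeq entries on build GRCr8, the seed (bases 2 to 8) is in capitals, and the 2 miR-101 sequences are shown for comparison with miR-144. The deposited names carry no arm, so the arm named here is RefSeq's entry for the guide strand of each hairpin.
rno-miR-451-5p: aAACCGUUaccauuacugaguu
rno-miR-144-3p: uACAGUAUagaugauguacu
rno-miR-101a-3p: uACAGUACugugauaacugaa
rno-miR-101b-3p: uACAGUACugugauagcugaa
The seeds of miR-451-5p and miR-144-3p are different, and no other of the 693 rat mature sequences of the RefSeq table has either 7-base seed at bases 2 to 8. miR-144-3p shares its bases 2 to 7 with miR-101a-3p and miR-101b-3p and differs from them at base 8. miR-144-3p lies at chr10:63459446-63459465 and miR-451-5p at chr10:63459585-63459606, both on the plus strand.

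The hairpins are printed in the same order as on the chromosome, with the mature arm in capitals, because they show why the pair is handled as one locus. The Mir144 hairpin spans chr10:63459397-63459479 and the Mir451a hairpin chr10:63459569-63459640, with 89 bases between them and 244 bases from end to end.
Mir144: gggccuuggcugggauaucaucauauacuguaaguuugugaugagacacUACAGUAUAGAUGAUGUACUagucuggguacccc
Mir451a: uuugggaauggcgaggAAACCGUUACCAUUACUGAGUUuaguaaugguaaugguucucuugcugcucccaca
The arm of miR-144-3p occupies bases 50 to 69 of its hairpin, on the 3′ side. The arm of miR-451-5p occupies bases 17 to 38, and runs into the turn of its hairpin.

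The values are log2 CPM, the log2 of counts scaled to the size of each animal's library, and the whole counts behind them were recovered from the table. An animal had 58168 to 267582 counts in all, of which the hepatocyte miRNA miR-122 took 42.1% to 68.8%. miR-451 had 26 to 400 counts per animal with a median of 84, and miR-144 had 28 to 639 with a median of 125.5. Counting error alone gave an SD of at most 0.28 on the log2 scale for miR-451 and 0.27 for miR-144. Differences were tested with limma over all 143 miRNAs and a call means a p under 0.05 after Benjamini-Hochberg adjustment. Nothing in the labels pairs a probe's level with absolute RNA amounts, so levels of the 2 probes were not ranked against each other.

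Both members varied more between animals of a group than most miRNAs did. The pooled SD within groups was 0.57 log2 units for miR-451, the fifth widest of 143, and 0.77 for miR-144, the widest, whereas the median miRNA had 0.29. Group SDs ran from 0.11 to 0.99 for miR-451 and from 0.15 to 1.56 for miR-144. The median counting SD was 0.16 for miR-451 and 0.13 for miR-144, below the pooled SD within groups for both. Within groups the members were weakly related to the log10 total count, with r = 0.14 for miR-451 and 0.16 for miR-144 over 48 animals.

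**Figure D1:**
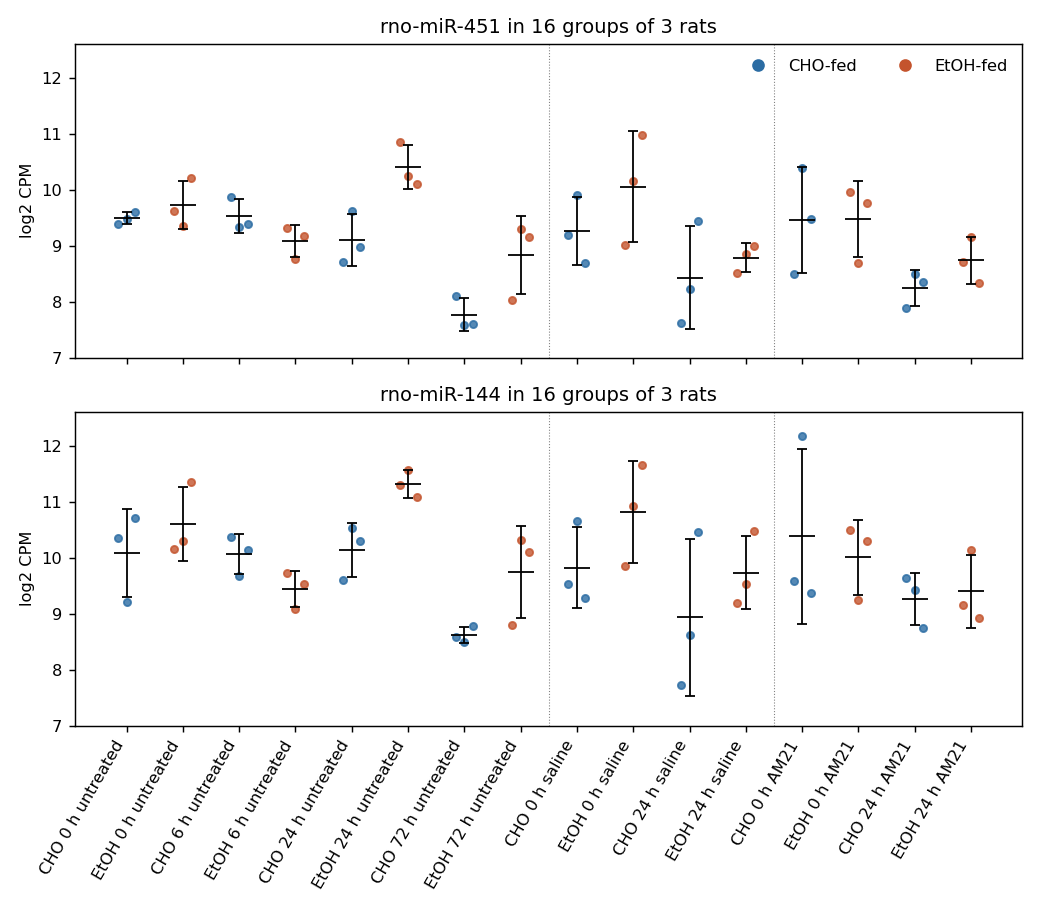
Level of rno-miR-451 (top) and rno-miR-144 (bottom) in log2 CPM in each of 16 groups of 3 rats. Points are animals, coloured by diet, and black lines are the group mean ± SD. EtOH-fed untreated rats at 24 h had the highest mean of both miRNAs and CHO-fed untreated rats at 72 h the lowest.

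Both members placed the same groups at the ends of their order. The highest mean of miR-451 was 10.40 ± 0.40 log2 CPM (SD, n = 3) in EtOH-fed untreated rats at 24 h, followed by EtOH-fed saline rats at 0 h (10.05 ± 0.99) and EtOH-fed untreated rats at 0 h (9.72 ± 0.44). Its lowest means were 7.77 ± 0.29 in CHO-fed untreated rats at 72 h, 8.24 ± 0.33 in CHO-fed AM21 rats at 24 h and 8.43 ± 0.93 in CHO-fed saline rats at 24 h. The same 3 groups led the order of miR-144, with 11.31 ± 0.24, 10.81 ± 0.91 and 10.60 ± 0.65. The bottom of that order was CHO-fed untreated rats at 72 h with 8.62 ± 0.15, then CHO-fed rats at 24 h given saline (8.93 ± 1.40) or AM21 (9.26 ± 0.47). The group means spanned 2.64 log2 units for miR-451 and 2.70 for miR-144. None of the 15 gaps between neighbours in the order exceeded the pooled SD for either member, the largest being 0.48 for miR-451 and 0.50 for miR-144, so the order is graded and neighbours were not separated beyond their spread.

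In untreated CHO-fed rats both miRNAs had no called change at 6 and 24 h and were lower at 72 h. The 0 h animals had miR-451 at 9.39, 9.48 and 9.60 log2 CPM (88, 45 and 115 counts). The 72 h animals had 8.10, 7.59 and 7.61 (52, 33 and 37 counts). These counts ranked 121, 139 and 133 from the highest among the 143 miRNAs, near the bottom of the table. Control probes were not used here, so the part of background in such low counts, and in the size of the fall, was not tested. In log2 CPM the time points did not overlap. The raw counts did, with 33 to 52 at 72 h and 45 to 115 at 0 h. The libraries held 171919 to 209221 counts at 72 h and 58168 to 126821 at 0 h. miR-451 fell 3.30-fold between 0 and 72 h, a log2 fold change of -1.72 ± 0.30 (SE, adjusted p = 0.000627 by limma), the widest change of the 143 miRNAs in this comparison, in which 18.2% were called. miR-144 was at 10.35, 9.20 and 10.70 log2 CPM at 0 h and at 8.59, 8.49 and 8.78 at 72 h. Every 72 h animal lay below every 0 h animal for miR-144 too. It fell 2.76-fold, with a log2 fold change of -1.47 ± 0.38 (SE, adjusted p = 0.0124 by limma), second in size after miR-451. The call was lost without replicate 1 at 0 h (-1.33, adjusted p = 0.0594) and in 1 fit over all 48 animals (adjusted p = 0.0732).

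The same fall appeared within set 4. At 6 h CHO-fed rats had miR-451 at 9.87, 9.33 and 9.38 log2 CPM and miR-144 at 10.37, 9.68 and 10.14. All 72 h values of both miRNAs lay below these. Against 6 h, miR-451 at 72 h fell by 1.76 ± 0.30 on the log2 scale (SE, adjusted p = 0.000461 by limma) and miR-144 fell by 1.44 ± 0.38 (adjusted p = 0.00786), in a comparison with 30.8% of miRNAs called. Each was lower in 3 of 3 animals, by 3.39-fold and 2.72-fold, and the call of miR-144 was lost in the fit over 48 animals (adjusted p = 0.0573).

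Earlier times gave no called difference in CHO-fed untreated rats. At 6 h the log2 fold change against 0 h was 0.04 (95% interval -0.59 to 0.66) for miR-451 and -0.02 (-0.81 to 0.77) for miR-144, with 2.10% of miRNAs called. At 24 h miR-451 was at 8.71, 9.61 and 8.97 and miR-144 at 9.60, 10.52 and 10.29 log2 CPM, overlapping the 0 h animals. The log2 fold change there was -0.39 (-1.02 to 0.23) and 0.05 (-0.74 to 0.84) respectively, and 1.40% of miRNAs were called. These intervals admit changes of over 1.5-fold in either direction for miR-144.

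**Figure D2:**
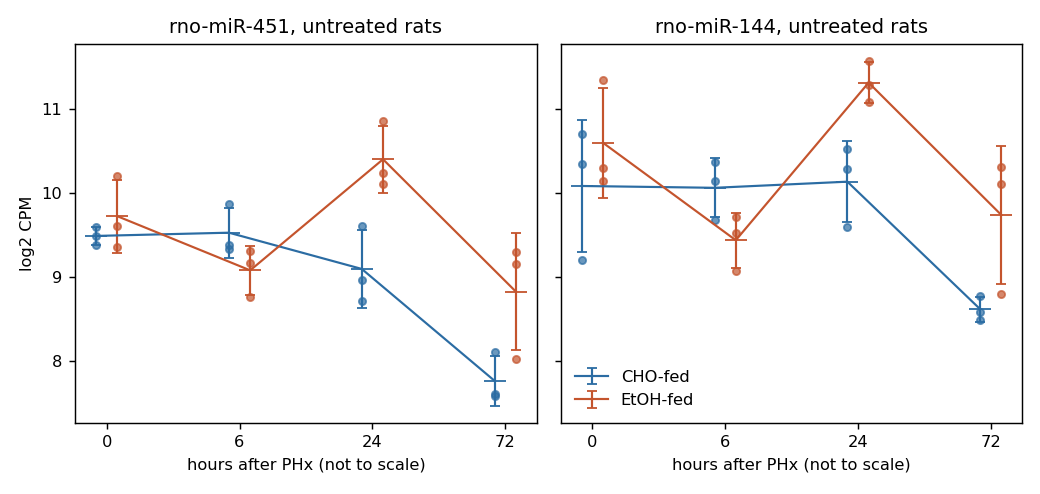
Level of rno-miR-451 (left) and rno-miR-144 (right) in log2 CPM in untreated rats at 0, 6, 24 and 72 h after PHx, with 3 rats per point. Points are animals, and lines join group means with bars of 1 SD. Both miRNAs fell by 72 h in CHO-fed rats, and EtOH-fed rats had their highest means at 24 h.

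In EtOH-fed untreated rats the means of both members were lower at 6 h, higher at 24 h and lower at 72 h than at 0 h, and of these differences the one of miR-451 at 72 h was called. At 0 h their miR-451 was at 9.61, 9.36 and 10.21 log2 CPM, and at 6 h at 9.31, 8.76 and 9.17. Every 6 h animal was below every 0 h animal, although the gap of 9.31 to 9.36 was narrow. The log2 fold change of -0.64 ± 0.30 was not called (SE, adjusted p = 0.151 by limma), in a comparison where 11.2% of miRNAs were. miR-144 went from 10.15, 10.30 and 11.35 to 9.72, 9.08 and 9.52, again without overlap, and its log2 fold change of -1.16 ± 0.38 narrowly missed the threshold (adjusted p = 0.0503 by limma). The adjusted p was 0.0431 with RLE size factors and 0.0636 with the geometric mean of the 100 highest probes as scaling, and without 1 animal it ran from 0.0234 to 0.305.

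At 24 h the EtOH-fed untreated rats had the highest group means of the study for both members. miR-451 stood at 10.86, 10.24 and 10.11 log2 CPM (331, 161 and 191 counts). miR-144 stood at 11.29, 11.57 and 11.08 (447, 405 and 376 counts). For both, 1 animal at 0 h reached into the 24 h range. The log2 fold changes against 0 h were 0.68 ± 0.30 (SE, adjusted p = 0.218 by limma) and 0.72 ± 0.38 (adjusted p = 0.296), neither called, with 1.40% of miRNAs called.

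By 72 h the EtOH-fed animals were spread. miR-451 was at 8.03, 9.30 and 9.15 log2 CPM, all below the 0 h animals. It fell 1.86-fold against 0 h, a log2 fold change of -0.90 ± 0.30 (SE, adjusted p = 0.0453 by limma, with 18.2% of miRNAs called). That call was lost without replicate 1 at 0 h (-0.95, adjusted p = 0.0733), replicate 3 at 0 h (-0.66, adjusted p = 0.175) or the lowest 72 h animal, replicate 4_10 (-0.50, adjusted p = 0.277), and also in the fit over 48 animals (adjusted p = 0.157) or over only the groups compared (adjusted p = 0.132). miR-144 was at 8.80, 10.31 and 10.11, with 1 rat inside the 0 h range and another just below it, and its log2 fold change of -0.86 ± 0.38 was not called (adjusted p = 0.122). Set against 6 h, within set 4, the members had log2 fold changes of -0.25 (95% interval -0.88 to 0.37) and 0.30 (-0.49 to 1.09), where 37.1% of miRNAs were called.

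The diets were then compared at each time, since the study asked how chronic ethanol alters the miRNA response to PHx. At 24 h without injection, miR-451 was higher in the EtOH-fed rats, and miR-144 had a difference of similar size that was not called. All 3 EtOH-fed values of miR-451, 10.11 to 10.86 log2 CPM, lay above the CHO-fed values of 8.71 to 9.61. It was 2.47-fold higher (log2 fold change 1.31 ± 0.30, SE, adjusted p = 0.0188 by limma), the largest difference of the 143 miRNAs, 2.10% of which were called. An earlier analysis had already called a diet difference at 24 h in these same untreated rats. The call and its rank therefore repeat known values and are not independent support. Without replicate 1 of the CHO-fed rats the difference was 1.11 (adjusted p = 0.0853), and without replicate 1 of the EtOH-fed rats it was 1.08 (adjusted p = 0.115). The adjusted p was 0.0846 in the fit over 48 animals and 0.0539 over only the groups compared. miR-144 was second in size, with values of 11.08 to 11.57 against 9.60 to 10.52 and a log2 fold change of 1.18 ± 0.38 that was not called (adjusted p = 0.0835).

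At 72 h the diet difference had a similar size and was not called. miR-451 was at 8.03 to 9.30 log2 CPM in EtOH-fed and 7.59 to 8.10 in CHO-fed rats, which overlapped through replicate 4_10 alone. For miR-144 the EtOH-fed values of 8.80 to 10.31 lay just above the CHO-fed values of 8.49 to 8.78. The log2 fold changes, 1.06 ± 0.30 (SE, adjusted p = 0.251 by limma) and 1.12 ± 0.38 (adjusted p = 0.273), were the 2 largest of all miRNAs. None of the 143 miRNAs was called by limma (0%), and 14 had an unadjusted p under 0.05. Without replicate 4_10 both were called, with log2 fold changes of 1.46 (adjusted p = 0.00652) and 1.59 (adjusted p = 0.0246).

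Before and shortly after surgery the diets were closer. At 0 h the log2 fold change was 0.23 (95% interval -0.39 to 0.86) for miR-451 and 0.51 (-0.28 to 1.31) for miR-144, both uncalled where 2.10% of miRNAs were called. At 6 h it had the opposite sign, -0.45 (-1.07 to 0.18) for miR-451 and -0.62 (-1.42 to 0.17) for miR-144. The diets overlapped for miR-144, and for miR-451 they were apart only by the narrow gap of 9.31 to 9.33 log2 CPM. limma called no miRNA at 6 h (0%), and 13 had an unadjusted p under 0.05.

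**Figure D3:**
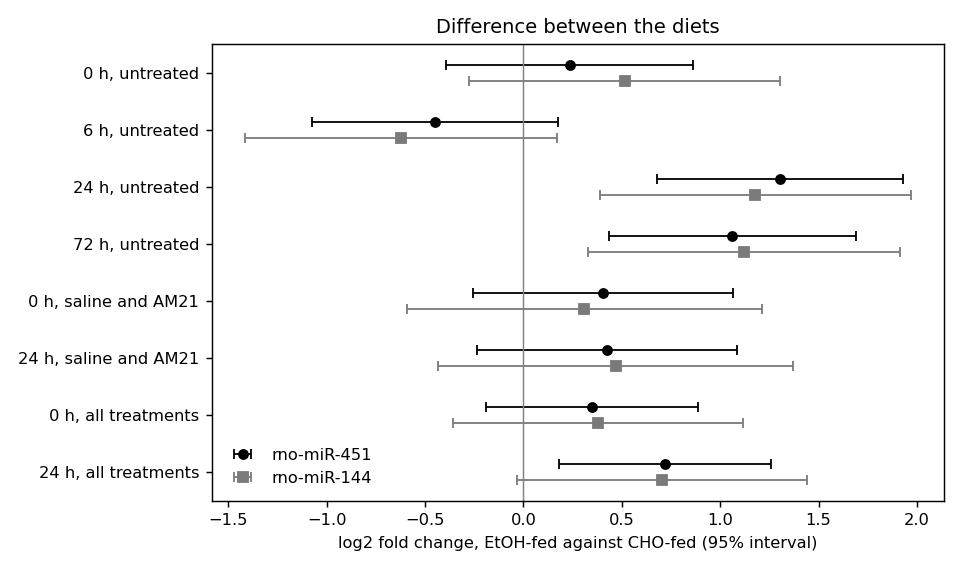
Log2 fold change of EtOH-fed against CHO-fed rats for rno-miR-451 (black circles) and rno-miR-144 (grey squares) at each time and treatment, with 95% intervals from limma. The untreated rows set 3 against 3 rats, the saline and AM21 rows 6 against 6 and the rows of all treatments 9 against 9. The differences of both miRNAs at 24 h were 1.31 and 1.18 in untreated rats and 0.42 and 0.47 in rats given saline or AM21.

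Whether the change since 0 h differed between the diets was tested as an interaction in the untreated rats. miR-451 gave -0.68 ± 0.43 at 6 h, 1.07 ± 0.43 at 24 h and 0.83 ± 0.43 at 72 h (log2 difference of changes, SE). The limma adjusted p was 0.988, 0.767 and 0.639. For miR-144 limma gave -1.14 ± 0.54, 0.66 ± 0.54 and 0.61 ± 0.54 (adjusted p = 0.988, 0.964 and 0.854). The model called 0% of miRNAs by limma for each of these 3 terms, and 3, 9 and 8 had an unadjusted p under 0.05, among them miR-144 at 6 h (0.0467) and miR-451 at 24 h (0.02). A diet difference called at 24 h and not at 0 h was therefore not shown to be a difference between these times.

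The rats given saline or AM21 offered other animals in which to look at the same contrast of diets. At 24 h, CHO-fed saline rats had miR-451 at 7.62, 8.23 and 9.44 log2 CPM and EtOH-fed saline rats at 8.50, 8.86 and 8.997. CHO-fed AM21 rats had 7.88, 8.50 and 8.35 and EtOH-fed AM21 rats 8.71, 9.16 and 8.33. The diets overlapped under both treatments, and none of these 12 rats reached the lowest EtOH-fed untreated rat. Over both treatments the diet difference was 0.42 (95% interval -0.23 to 1.08) for miR-451 and 0.47 (-0.43 to 1.37) for miR-144. limma called 0% of miRNAs there, and 9 had an unadjusted p under 0.05.

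For miR-144 at 24 h the spread under saline was wide. The CHO-fed saline rats were at 7.72, 8.61 and 10.46 log2 CPM (28, 64 and 243 counts) and the EtOH-fed saline rats at 9.20, 9.53 and 10.47. AM21 rats were at 9.63, 9.42 and 8.73 when CHO-fed and at 9.15, 10.14 and 8.91 when EtOH-fed. The diets overlapped in both treatments. Over all 3 treatments, 9 against 9 rats, the diet difference at 24 h was 0.72 ± 0.26 for miR-451 (SE, adjusted p = 0.168 by limma) and 0.71 ± 0.36 for miR-144 (adjusted p = 0.33), the 2 largest of all miRNAs, with 1.40% called. Within sets 1, 2 and 3 it was 1.29, 0.64 and 0.23 for miR-451 and 0.90, 0.90 and 0.33 for miR-144.

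At 0 h the injected rats differed widely among themselves. miR-451 was at 9.19, 9.90 and 8.69 log2 CPM in CHO-fed and at 9.01, 10.15 and 10.98 in EtOH-fed saline rats. Under AM21 it was at 8.50, 10.39 and 9.48 in CHO-fed and at 9.95, 8.70 and 9.77 in EtOH-fed rats. The diets overlapped under each treatment. miR-144 reached its highest value of the study, 12.18 (498 counts), in replicate 2 of the CHO-fed AM21 rats, whose 2 fellows were at 9.59 and 9.37. The diet difference at 0 h was 0.40 (95% interval -0.26 to 1.06) for miR-451 and 0.31 (-0.59 to 1.21) for miR-144 in saline and AM21 rats, with 6.29% of miRNAs called, and 0.35 (-0.19 to 0.89) and 0.38 (-0.36 to 1.11) over all 3 treatments, with 14.7% called. Within sets 1, 2 and 3 the latter was 0.50, -0.52 and 1.06 for miR-451 and 0.34, -0.52 and 1.32 for miR-144, so the direction was not shared by the sets.

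Over all 3 treatments, miR-451 fell between 0 and 24 h in CHO-fed rats. The log2 fold change of 9 against 9 rats was -0.81 ± 0.26 (SE, adjusted p = 0.0168 by limma), a 1.76-fold fall and the third largest change, with 35.0% of miRNAs called. Within sets 1, 2 and 3 it was -0.96, -1.14 and -0.34. miR-144 had -0.65 ± 0.36 (adjusted p = 0.157), with -0.84, -1.16 and 0.04 within the sets, and was called without replicate 3 of the CHO-fed saline rats at 24 h (-0.91, adjusted p = 0.0391). In EtOH-fed rats the changes were -0.44 ± 0.26 for miR-451 (adjusted p = 0.208) and -0.32 ± 0.36 for miR-144 (adjusted p = 0.525), where 19.6% of miRNAs were called. Within the sets these were -0.17, 0.02 and -1.17 for miR-451 and -0.28, 0.26 and -0.95 for miR-144. A difference of this change between the diets was not called, at 0.37 (95% interval -0.39 to 1.13) and 0.33 (-0.71 to 1.37), for which limma called 0% of miRNAs and 17 had an unadjusted p under 0.05.

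**Figure D4:**
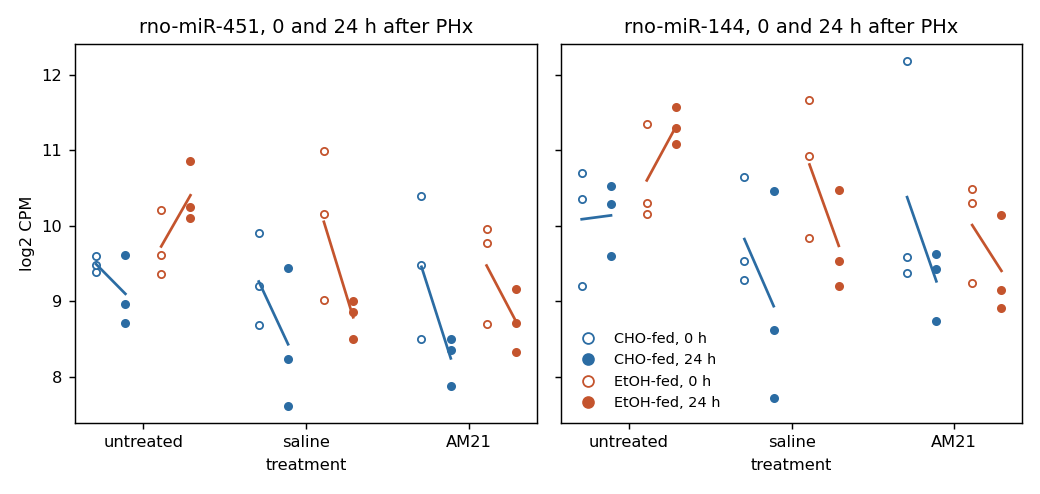
Level of rno-miR-451 (left) and rno-miR-144 (right) in log2 CPM at 0 h (open points) and 24 h (filled points) in untreated, saline and AM21 rats, by diet. Points are animals, and each line joins the means of 3 rats at 0 and 24 h. The means of both miRNAs were higher at 24 h than at 0 h in EtOH-fed untreated rats and lower in EtOH-fed rats given saline or AM21.

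Treatment itself gave differences of the same sign for both members that did not pass the adjusted threshold. Averaged over diet and time, saline rats against untreated rats had log2 fold changes of -0.55 ± 0.23 for miR-451 (SE, adjusted p = 0.469 by limma) and -0.71 ± 0.31 for miR-144 (adjusted p = 0.525), both among the 3 largest in size, in a comparison with 1.40% of miRNAs called. AM21 rats against untreated and saline rats together had -0.43 ± 0.20 (adjusted p = 0.324) and -0.42 ± 0.27 (adjusted p = 0.375), with 5.59% called. The unadjusted p was 0.0229 and 0.0306 for saline, and 0.0379 and 0.134 for AM21. The averages for saline held groups of both signs. In EtOH-fed rats at 0 h the saline means were above the untreated ones (10.05 against 9.72 log2 CPM for miR-451, 10.81 against 10.60 for miR-144). At 24 h they were below (8.79 against 10.40 and 9.73 against 11.31). In CHO-fed rats the saline means of both members were below the untreated ones at both times.

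The low values of injected rats at 24 h led to comparisons that were added after the values were seen. Their p-values rest on the same values that led to them, and cannot be read like those of the planned comparisons. The planned comparisons were themselves set with earlier results of these data known. In EtOH-fed rats, miR-451 ran from 8.33 to 9.16 log2 CPM in the 6 saline and AM21 animals and from 10.11 to 10.86 in the 3 untreated ones. It was 3.12-fold lower after injection (log2 fold change -1.64 ± 0.40, SE, adjusted p = 0.0177 by limma, 1.40% of miRNAs called). The call was lost without replicate 1 (-1.41, adjusted p = 0.307) or 2 (-1.72, adjusted p = 0.0617) of the untreated rats or replicate 1 of the saline rats (-1.57, adjusted p = 0.0512). miR-144 also did not overlap, at 8.91 to 10.47 against 11.08 to 11.57, and its log2 fold change of -1.75 ± 0.54 was not called (adjusted p = 0.135). In CHO-fed rats the same comparison gave -0.76 ± 0.40 (adjusted p = 0.605) and -1.04 ± 0.54 (adjusted p = 0.605), with 0.699% called. The diets were not shown to differ in this, with a log2 difference of -0.88 ± 0.56 for miR-451 and -0.71 ± 0.77 for miR-144 (adjusted p = 0.908 for both by limma, 0% called, 6 miRNAs at an unadjusted p under 0.05).

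Among EtOH-fed rats the change from 0 to 24 h was also set against injection. For miR-451 the change in injected rats minus that in untreated rats was -1.68 ± 0.56 log2 units (SE), with a 95% interval of -2.82 to -0.54 and an unadjusted p of 0.00535 by limma. This was the smallest p and the largest size of the 143 miRNAs. The comparison was chosen after the members' values were seen, so that rank is a description only. The difference did not pass adjustment (adjusted p = 0.765 by limma, 0% called, 2 miRNAs at an unadjusted p under 0.05). miR-144 gave -1.56 ± 0.77 (adjusted p = 0.981).

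The members moved together from animal to animal. After group means were removed, miR-144 and miR-451 had a Pearson r of 0.83 and a Spearman rho of 0.80 over 48 animals. Without the 2 animals farthest from the median in miR-144, replicate 2 of the CHO-fed AM21 rats at 0 h and replicate 3 of the CHO-fed saline rats at 24 h, r was 0.79. Within sets 1, 2, 3 and 4 it was 0.77, 0.85, 0.79 and 0.90. Both members lay on the same side of their group mean in 37 of 48 animals. Over the 16 group means r was 0.95. These values are descriptions, since both miRNAs of an animal come from a single hybridisation and share its scaling.

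**Figure D5:**
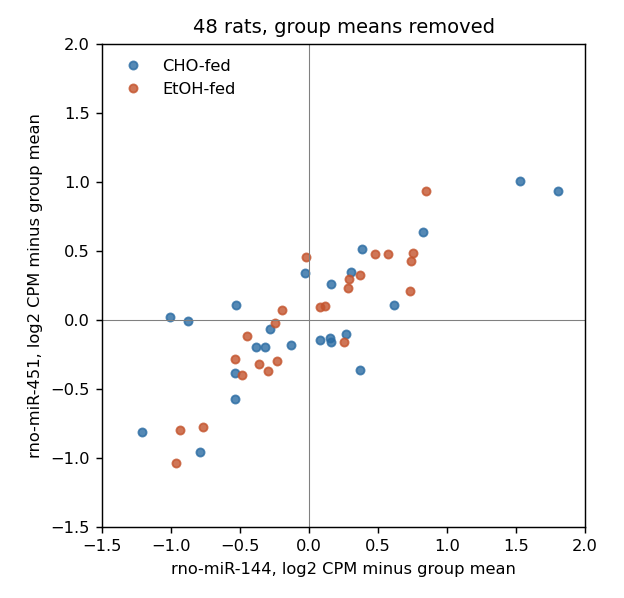
Deviation of rno-miR-451 (vertical axis) against that of rno-miR-144 (horizontal axis) from the mean of their group, in log2 CPM, for 48 rats. Each point is 1 rat, coloured by diet. The points follow a rising line with r = 0.83, and the rat farthest to the right, at 1.80 and 0.94, is replicate 2 of the CHO-fed AM21 rats at 0 h.

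The pair was not rigidly locked. The least-squares slope of miR-451 on miR-144 within groups was 0.61. Scatter in miR-144 lowers such a slope, so it does not by itself show that miR-451 moved less. The log2 value of miR-144 minus that of miR-451 ranged from -0.28 to 1.79 over the animals, with a median of 0.75 and a pooled SD within groups of 0.44. The 2 largest joint excursions had both members above the group mean. Replicate 2 of the CHO-fed AM21 rats at 0 h was above its group mean by 1.80 in miR-144 and 0.94 in miR-451. Replicate 3 of the CHO-fed saline rats at 24 h was above by 1.53 and 1.01.

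Each member was the other's closest partner among 142 miRNAs, both over animals and over group means. Next to miR-451 over animals came miR-142-3p (r = 0.45) and miR-338 (r = 0.42). Next to miR-144 came miR-142-3p (r = 0.71), a miRNA of leukocytes and other blood-forming cells, and let-7i (r = 0.56). Over the 16 group means the next were miR-23b (r = 0.66) and miR-30c (r = 0.62) for miR-451, and miR-30c (r = 0.58) and miR-23b (r = 0.52) for miR-144. These are lower than the r between the members.

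The likeness to miR-142-3p was uneven. With miR-144 it was 0.31, 0.90, 0.81 and 0.30 within sets 1, 2, 3 and 4, and 0.61 without the 2 animals farthest from the median in miR-142-3p, both of them CHO-fed AM21 rats at 0 h. With miR-451 it was 0.22, 0.65, 0.47 and 0.16 within the sets and 0.39 without those animals. Between groups miR-142-3p went with the members in some comparisons and against them in others. In CHO-fed rats from 6 to 72 h, where both members fell, it rose by 0.87 ± 0.26 on the log2 scale (SE, adjusted p = 0.0156 by limma), while miR-150 of the same leukocyte list fell by 0.98 (adjusted p = 0.00391) and miR-342-3p and miR-223 had uncalled log2 fold changes of -0.21 and 0.41. In EtOH-fed untreated rats at 6 h against 0 h miR-142-3p had -0.65, the same sign as both members and not called. The rest of the list had the opposite sign there, with 0.20 for miR-223, 0.23 for miR-150 and 0.37 for miR-342-3p. Between the diets at 24 h in untreated rats miR-142-3p had 0.38 and miR-342-3p 0.32, the sign of both members. miR-223 and miR-150 had -0.17 each, and none of the list was called in either comparison.

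Other blood and liver markers were read beside the members. Of the leukocyte list, 4 of 6 miRNAs were in the table (miR-142-3p, miR-223, miR-150 and miR-342-3p), and their summed level stayed between 11.28 and 12.23 log2 CPM over all 48 animals. Within groups, miR-223 had r = 0.15 with miR-451 and 0.09 with miR-144, and miR-150 had -0.23 and -0.20. The hepatocyte miRNAs miR-122, miR-192 and miR-194 were all present, none below 392 counts in any animal, and miR-122 had r = -0.08 with miR-451 and -0.11 with miR-144. The endothelial miRNA miR-126 had 0.09 and 0.27. At 72 h in CHO-fed rats, where the members fell, the summed leukocyte level was 11.65 to 11.95, against 11.48 to 11.80 at 0 h, and the hepatocyte level was 19.14 to 19.39 against 18.48 to 19.10. The leukocyte miRNAs went in both directions there. miR-342-3p rose by 0.77 on the log2 scale (adjusted p = 0.0223 by limma), and miR-142-3p (0.58), miR-223 (0.37) and miR-150 (-0.61, adjusted p = 0.0566) were not called. The part of these cell types in the fall of the members was not tested.

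Other miRNAs that mature red blood cells hold did not follow the pair at 72 h. Of 10 listed, 7 were in the table: miR-16, miR-15b, miR-25, miR-93, miR-185, miR-107, and a probe shared by miR-20a and miR-20b-5p. Most of them are also made in liver cells. In CHO-fed rats at 72 h against 0 h, 3 of 7 rose and 0 fell, with a median log2 fold change of 0.56. Over all 143 miRNAs 8.39% rose, and 12 were called higher and 14 lower (18.2%), with a median of 0.00. The risers were miR-16 (1.36 ± 0.23, SE, adjusted p = 0.000627 by limma), miR-15b (0.79 ± 0.21, adjusted p = 0.0132) and miR-185 (0.93 ± 0.23, adjusted p = 0.00882). In EtOH-fed rats 4 of 7 rose and 0 fell, with a median of 0.82. Over all miRNAs 10.5% rose there, and 15 were called higher and 11 lower (18.2%), with a median of 0.03. miR-93 joined the other 3 there, at 0.82 ± 0.20 (adjusted p = 0.00718). These changes against 0 h cannot be told apart from a difference between sets. Within set 4, at 72 h against 6 h, 2 of 7 rose in CHO-fed rats and 3 of 7 in EtOH-fed rats, and 0 fell. Over all miRNAs 21 rose and 23 fell in CHO-fed rats, and 31 rose and 22 fell in EtOH-fed rats. There miR-15b in CHO-fed rats (0.49, adjusted p = 0.0883 by limma) and miR-93 in EtOH-fed rats (0.51, adjusted p = 0.0529) were not called.

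In amount, the summed level of these 7 miRNAs went from 14.88 to 15.22 log2 CPM in CHO-fed rats at 0 h to 15.91 to 15.93 at 72 h, while both members fell. miR-16 had the largest part in this sum, with means of 13.89 at 0 h and 15.25 at 72 h, so the sum mostly follows miR-16. miR-93, the miR-20a and miR-20b-5p probe, miR-25 and miR-107 had uncalled log2 fold changes of 0.56, 0.22, 0.11 and -0.005 there. At 24 h in untreated rats, where miR-451 was higher in EtOH-fed animals, 0 of the 7 were called between the diets. With 2.10% of all miRNAs called there, this does not set the 7 apart from other miRNAs. Their median log2 fold change was 0.14, and 6 of the 7 were positive. The largest was miR-185 at 0.70 (adjusted p = 0.0835 by limma), and the miR-20a and miR-20b-5p probe had -0.38. Within groups their r with miR-451 ran from -0.16 for miR-15b to 0.25 for miR-93. With miR-144 it ran from -0.30 for miR-15b to 0.33 for the miR-20a and miR-20b-5p probe.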

How the data were processed

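Rat liver RNA of 48 animals was counted with the NanoString nCounter assay. The authors scaled the counts by TMM in edgeR, transformed them with voom of limma, and deposited log2 CPM for 143 miRNAs. Raw counts, control probes and the filter that kept these miRNAs were not used here. The counts were recovered through voom's offset of 0.5, every one within 0.001 of a whole number. With 26 to 639 counts, counting error limits single values, and does not cover the pooled spread between animals. It was wider than the spread in some groups. In CHO-fed untreated rats miR-451 at 0 h had an SD of 0.11 and counting SDs of 0.13 to 0.22. There miR-144 at 72 h had an SD of 0.15 and counting SDs of 0.16 to 0.18. The tightness of such groups may not hold in other animals.

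The deposited log2 CPM entered a model with a mean for each group in limma (version 3.58.1, R 4.3.3). Comparisons in untreated rats used 24 animals in 8 groups, and those at 0 and 24 h used 36 animals in 12 groups. Benjamini-Hochberg adjustment ran over 143 miRNAs within each of 24 comparisons, and an adjusted p under 0.05 was called. 4 further comparisons were added after the values were seen, and their p-values are descriptions. Named miRNAs were the members, the 3 most like each by Pearson r over animals and over group means, and list members beside a result. The members and lists were chosen with earlier results of these data known. The labels number samples, each taken here as 1 rat, and p-values measure the spread between these samples. Whether groups overlapped was recorded for the members alone, so no share over all miRNAs stands beside it. The steps were tested on simulated data.

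Same-numbered animals were checked for shared deviations from group means. In 5 of 20 pairs of groups all 3 correlations exceeded 0.1, among them EtOH-fed and CHO-fed untreated rats at 0 h (0.52, 0.79 and 0.65) and CHO-fed untreated rats at 24 and 0 h (0.12, 0.30 and 0.28).

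Alternatives were a replicate block, voom weights, scaling by RLE size factors or by the 100 highest probes, a filter that kept the 138 miRNAs with 50 or more counts in 3 or more animals, 1 fit over 48 animals, only the groups compared, and leaving out each animal. Sequences are from RefSeq (GRCr8). Plots were made in Python 3.11.15 (matplotlib 3.10.9).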

Additional observations from a re-analysis of the deposited data

Results flagged for a closer look

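In EtOH-fed rats the change from 0 to 24 h had opposite signs in untreated and injected animals. For miR-451 it was 0.68 on the log2 scale in untreated rats, -1.26 in saline rats and -0.74 in AM21 rats, differences of -1.94 and -1.41 from the untreated. For miR-144 it was 0.72 in untreated and -1.08 in saline rats, a difference of -1.79. These 3 results were picked out because all 3 untreated rats at 24 h lay above the 0 h mean of their treatment and all 3 injected rats lay below theirs, and the differences for saline and for AM21 were not tested one by one. With saline and AM21 pooled, the difference did not pass adjustment (adjusted p = 0.765 for miR-451 and 0.981 for miR-144 by limma).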

How the results depend on the processing

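Of 912 alternative values for 48 planned results, 880 kept direction and side of the threshold, 12 lost a call, 8 gained one and 12 changed sign. The falls of miR-451 at 72 h in CHO-fed rats, against 0 h and 6 h, kept their call under every alternative run, as did its fall at 24 h over all treatments.

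For miR-144 in EtOH-fed rats at 6 h against 0 h, RLE size factors gave -1.18 (adjusted p = 0.0431), the filter -1.16 (0.0497) and voom weights -1.18 (0.0343), now called, whereas the 100 highest probes gave -1.03 (0.0636), not called. In 1 fit over 48 animals, calls were lost for miR-144 in CHO-fed rats at 72 h against 0 h (-1.47, adjusted p = 0.0732) and 6 h (-1.44, 0.0573), for miR-451 in EtOH-fed rats at 72 h against 0 h (-0.90, 0.157), and for the diet difference of miR-451 at 24 h (1.31, 0.0846). With only the groups compared, calls were lost for miR-451 in EtOH-fed rats at 72 h (-0.90, 0.132) and the diet at 24 h (1.31, 0.0539), and gained for the diet at 24 h over all treatments (0.72, 0.0488). For miR-144 in CHO-fed rats at 24 h against 0 h the sign turned with the 100 highest probes (-0.037) and voom weights (-0.019). The other scalings moved the median of all miRNAs by at most 0.08 (RLE) and 0.15 (100 highest probes). The causes were not tested.

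Leaving out 1 animal gave these ranges where a call or sign changed. miR-144 in CHO-fed rats at 72 h against 0 h ran from -1.91 to -1.16, and miR-451 in EtOH-fed rats at 72 h against 0 h from -1.14 to -0.50. The diet difference of miR-451 at 24 h was 1.08 to 1.56. At 72 h it was 0.82 to 1.46, and for miR-144 0.84 to 1.59. miR-144 in EtOH-fed rats at 6 h ran from -1.39 to -0.78, and in CHO-fed rats at 24 h over all treatments from -0.91 to -0.35. Signs turned, all uncalled, for CHO-fed rats at 6 h (-0.13 to 0.14 for miR-451, -0.46 to 0.29 for miR-144), miR-144 in CHO-fed rats at 24 h (-0.39 to 0.36), miR-451 in EtOH-fed rats at 72 h against 6 h (-0.49 to 0.15) and the diet difference of miR-451 at 0 h (-0.0062 to 0.42).

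With the replicate block, the diet difference of miR-451 at 24 h in untreated rats was 1.31 (adjusted p = 0.0197 by limma), and the block changed no call of these results. In the added comparison of injected with untreated EtOH-fed rats at 24 h, miR-144 was called with only the groups compared (-1.75, adjusted p = 0.00361). An omission left 2 animals in a group, which were assumed to vary like the other groups. With 3 animals a group, changes of a size such as the diet difference at 72 h could pass or miss the threshold by 1 animal.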
